A study of Homo sapiens with 8 samples.

Results

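The GADD45 proteins are small stress-induced adaptors, and the kinases that carry their signal form a relay from MAP3K4 to p38 and JNK. Transcript levels of 8 such genes were followed across GA, 5azaC and their untreated controls. They were GADD45A, GADD45B, GADD45G, MAP3K4, MAP2K3, MAP2K6, MAPK14 and MAPK8, chosen by gene symbol as the family, the kinase it binds and the kinases downstream, out of 17687 gene symbols in the table. Of the 8 genes, 7 had a probe set under their symbol, each of them a single one. MAPK14, which encodes p38 alpha, had none under its name in the probe table and was not analysed here.

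H1299 is a human non-small cell lung carcinoma line that lacks functional p53. GA stands for gallic acid, a phenolic acid found in tea. The cytidine analog 5-azacytidine (5azaC) is built into DNA and traps the methyltransferases there. RNA was hybridized to 8 Clariom S arrays, 2 biological replicates for each of 4 groups, which were H1299 cells exposed to GA for 120 h, their untreated controls, cells exposed to 5azaC for 120 h, and the untreated controls of that experiment. By the sample labels the controls were left untreated and came from the same passage, and the dose of either compound was 10 mM, whereas the methods text has the unit as μM. All groups stand for 1 cell line only.

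Growth Arrest and DNA Damage-inducible 45 proteins have no enzymatic activity of their own. In stressed cells they bind the kinase MAP3K4 and switch it on, and MAP3K4 phosphorylates MAP2K3 and MAP2K6, which in turn phosphorylate the p38 kinases, while a parallel branch runs to the JNK kinase MAPK8. The same proteins bind PCNA, CDKN1A and the CDK1-cyclin B1 complex, and GADD45A has been linked to DNA repair and to active DNA demethylation. Kinases of this relay are governed largely by phosphorylation, which an RNA array does not measure.

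Values are log2 signals, 1 per probe set and array, and a difference of 1 on this scale is a doubling of signal. The 612 negative-control probe sets of an array gave its background, taken as their 95th percentile, at a log2 signal of 6.31 to 7.23. The median log2 signal of an array was 5.60 to 5.63 in the GA experiment and 5.85 to 5.87 in the 5azaC experiment. Of the markers checked, KRT8, KRT18, VIM, CDH2 and FN1 were above background on all 8 arrays, whereas KRT19, EPCAM, CDH1 and all 4 markers of differentiated lung epithelium were above it on none. Of the markers of other cell types, CD68 was above background on all 8 arrays, and PTPRC, CD3E, PECAM1, CDH5 and VWF were on none. Treated arrays were compared with the controls of the same experiment with limma over all 21448 probe sets, with the pair of same-numbered arrays as a block, and a change was called at a Benjamini-Hochberg adjusted p under 0.05. The replicates are labelled biological, and nothing further in the labels says how separate the cultures were. In RNA from whole cultures, a change in the share of cells that express a gene and a change in its RNA per cell cannot be told apart.

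The promoter windows of GADD45B and GADD45G are shown because both hold many CG dinucleotides, the sites that DNA methyltransferases act on, and because one gene lay above background on every array and the other on none. Sequences are those of RefSeq on GRCh38.p14. In the set used, 7 of the 8 genes had an entry. GADD45A had none, so its promoter was neither shown nor searched. Each window is the 250 bases before the annotated start of the transcript, on the plus strand, at chr19:2475877-2476126 for GADD45B and at chr9:89604762-89605011 for GADD45G, with every CG in capitals.
GADD45B: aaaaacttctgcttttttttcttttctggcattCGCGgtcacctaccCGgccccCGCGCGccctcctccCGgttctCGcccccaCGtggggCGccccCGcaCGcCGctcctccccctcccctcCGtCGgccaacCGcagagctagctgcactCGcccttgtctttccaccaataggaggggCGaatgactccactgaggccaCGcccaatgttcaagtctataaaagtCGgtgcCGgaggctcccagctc
GADD45G: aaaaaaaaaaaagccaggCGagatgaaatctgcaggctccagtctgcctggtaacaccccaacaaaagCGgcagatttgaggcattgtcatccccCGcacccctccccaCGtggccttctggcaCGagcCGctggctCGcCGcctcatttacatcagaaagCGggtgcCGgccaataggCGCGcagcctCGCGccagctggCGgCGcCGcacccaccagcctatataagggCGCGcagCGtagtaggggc
GADD45B held 21 CG dinucleotides and GADD45G held 20, against a median of 11 over all 35116 windows of this length. As many or more were present in 30.2% of all windows for GADD45B and in 32.5% for GADD45G. Among the kinases, the windows of MAP3K4 and MAPK8 each held 38, a number reached by 3.28% of all windows, while MAPK14 held 19 and the 2 windows each of MAP2K3 and MAP2K6 held 22 and 5, and 20 and 3. Methylation of these windows was not measured on the arrays.

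Short motifs of factors known to act on GADD45 genes were searched on both strands of the same windows, and no match overlapped a match of another motif there. CCAAT, read by the NF-Y complex, occurred 2 times in GADD45B and 1 time each in GADD45G, MAPK14 and the first window of MAP2K3, and 32.0% of all windows hold it. TGATGNAA, the composite element read by C/EBP and ATF4, occurred 1 time in GADD45G and is held by 3.14% of all windows. GCGNGGGCG, read by EGR1, occurred 1 time in GADD45B and 3 times in MAPK8 and is held by 8.42% of all windows. TGACGTCA, the cyclic AMP response element, was found in none of the windows of the 7 genes searched and is held by 1.65% of all. GADD45A was not among them. A match of letters describes the window only.

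GADD45A, the family member best known for induction by DNA damage, fell after GA. Its log2 signal was 10.34 and 9.82 on the GA arrays, against 11.78 and 11.65 on their untreated controls. After 5azaC the log2 signals were 10.75 and 10.93, against 12.00 and 11.90 on the controls of that experiment. Both treated groups thus lay below all 4 untreated arrays, by more than the gap between the replicates of any group.

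The mean log2 signal of GADD45A was 10.08 ± 0.37 (SD, n = 2) after GA and 11.71 ± 0.09 (n = 2) without it, and the log2 fold change was -1.63 (SE 0.22, 95% interval -2.14 to -1.12, limma adjusted p = 0.0356), a signal 3.10-fold lower. For 5azaC the means were 10.84 ± 0.13 (n = 2) and 11.95 ± 0.07 (n = 2), with a log2 fold change of -1.10 (SE 0.22, 95% interval -1.61 to -0.59), a signal 2.15-fold lower that did not pass the threshold (limma adjusted p = 0.0572). Among the 7 measured genes, GADD45A was the only one called after GA, where 0.242% of all probe sets were called lower and 0.0793% higher, and no gene of the 7 was called after 5azaC, where 0.988% were called lower and 0.518% higher. Without the pair block GADD45A passed in both treatments (limma adjusted p = 0.0077 for GA and 0.0273 for 5azaC), and 0.928% and 2.29% of all probe sets were then called lower. After GA its log2 fold change was -1.82 with pair 1 left out and -1.44 with pair 2 left out. Without the pair block it ranged from -1.89 to -1.37 with a single array left out. Such fits leave 1 array in a group, so whether the call holds without an array cannot be judged from them.

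**Figure D1:**
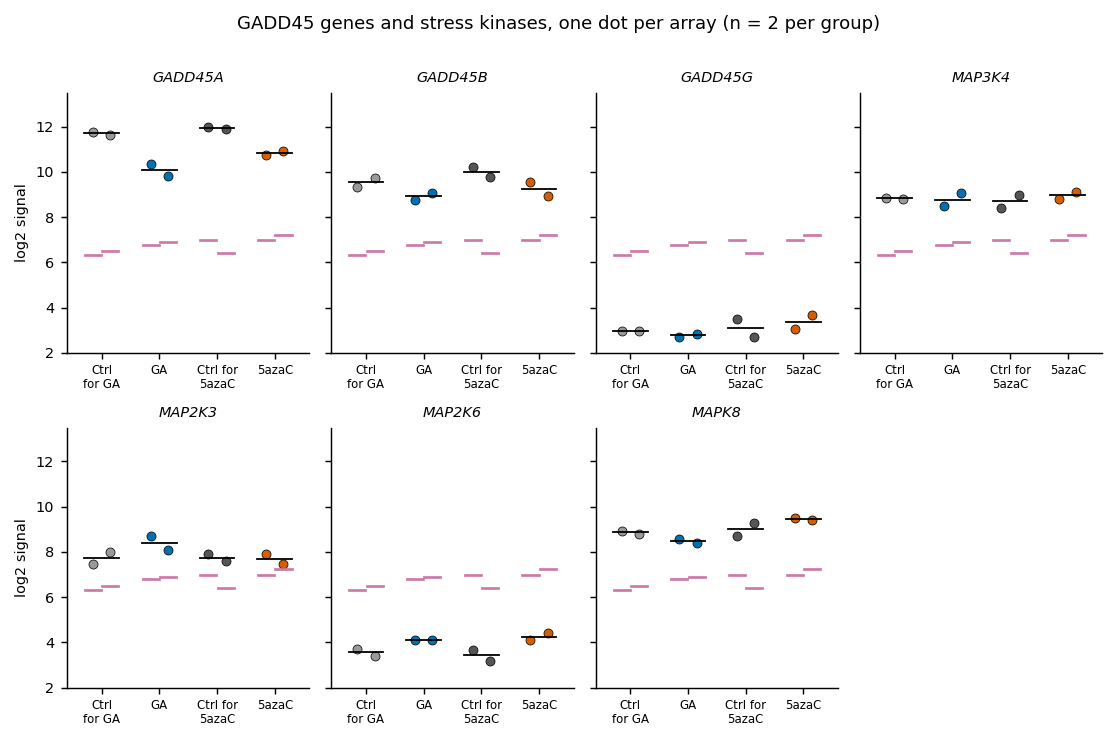
Log2 signal (vertical axis) of the 7 measured genes on each array, by group (horizontal axis), with 1 dot per array, a black line at the mean of the 2 replicates and a pink line at the 95th percentile of the negative controls of that array. GADD45A lies lower on the treated arrays of both experiments, and GADD45G and MAP2K6 lie below the pink lines on all 8 arrays.

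GADD45B, which is induced by inflammatory signals and restrains JNK by binding MAP2K7, was lower on the treated arrays of both experiments without passing the threshold. The log2 signals were 8.76 and 9.08 after GA against 9.35 and 9.75 in the controls. After 5azaC they were 9.56 and 8.94, against 10.20 and 9.77. The groups did not overlap in either experiment, although the gap between treated and untreated arrays was narrow, and the signal of 5azaC replicate 1 lay above that of 1 untreated array of the GA experiment.

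The log2 fold change of GADD45B was -0.63 for GA (SE 0.20, 95% interval -1.11 to -0.16, limma adjusted p = 0.201) and -0.73 for 5azaC (SE 0.20, 95% interval -1.21 to -0.26, adjusted p = 0.111). In single pairs it was -0.60 and -0.67 for GA and -0.64 and -0.83 for 5azaC. Arrays of the GA group lay entirely below their controls for 21.4% of all probe sets and entirely above them for 25.3%, and the shares were 22.2% and 28.1% for 5azaC, so that separation of the groups alone was common. Of the 5 genes above background, 4 were separated in this way in the GA experiment, against 46.7% of all probe sets, and 3 in the 5azaC experiment, against 50.3%. Limited to probe sets above background on at least 2 arrays, GADD45B passed the threshold in both treatments (adjusted p = 0.0499 for GA and 0.0258 for 5azaC), but in that smaller table of 9872 probe sets 5.82% were called lower after GA and 10.7% after 5azaC.

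GADD45G, a family member known to be silenced in several cancers, stayed at 2.72 to 3.65 in log2 signal on the 8 arrays. It was below background on every one of them, those of 5azaC included, where the log2 signals were 3.05 and 3.65. No change was read from it, and a level under the background percentile could not be told from no transcript.

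MAP3K4, the kinase that the GADD45 proteins bind, showed no called change. Its log2 signals were 8.50 and 9.06 after GA against 8.86 and 8.82, and 8.81 and 9.13 after 5azaC against 8.42 and 9.00. The groups overlapped in both experiments. The log2 fold change was -0.06 for GA (95% interval -0.60 to 0.48, limma adjusted p = 0.934) and 0.26 for 5azaC (95% interval -0.29 to 0.80, adjusted p = 0.595), so a fall of about 1.5-fold after GA lies within the interval.

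MAP2K3, which phosphorylates p38, had its highest signal in GA replicate 1. Its log2 signals were 8.71 and 8.08 after GA against 7.45 and 8.00 in the controls, and 7.91 and 7.47 after 5azaC against 7.89 and 7.59. The GA arrays lay above their controls, but by 1.25 in pair 1 and by 0.08 in pair 2 on the log2 scale. The log2 fold change was 0.67 for GA (SE 0.29, 95% interval -0.02 to 1.35, limma adjusted p = 0.329) and -0.05 for 5azaC (95% interval -0.74 to 0.63, adjusted p = 0.946).

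MAP2K6, the other activator of p38 in the relay, stayed at 3.19 to 4.41 in log2 signal and below background on all 8 arrays, and no change was read from it.

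MAPK8, which encodes JNK1, was the one gene above background whose treated arrays lay clear of their controls on opposite sides in the 2 experiments. Its log2 signals were 8.58 and 8.39 after GA against 8.92 and 8.81. After 5azaC they were 9.51 and 9.42, against 8.71 and 9.29. The GA arrays lay below both of their controls and the 5azaC arrays above both of theirs. The log2 fold change was -0.38 for GA (95% interval -0.93 to 0.17, limma adjusted p = 0.498) and 0.47 for 5azaC (95% interval -0.08 to 1.02, adjusted p = 0.320), and neither passed.

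**Figure D2:**
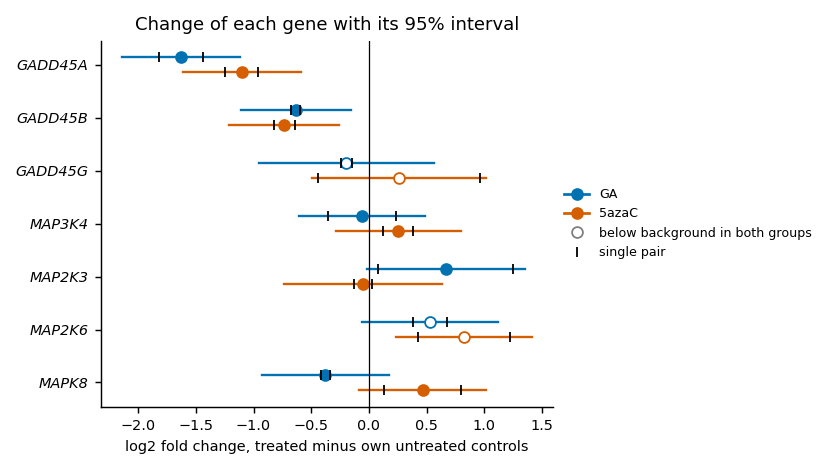
Log2 fold change (horizontal axis, treated minus own untreated controls) of each measured gene, with the 95% interval of the limma fit as a line and each of the 2 pairs as a tick. The intervals of GADD45A and GADD45B lie below 0 in both treatments, that of MAPK8 includes 0 in both, and open circles mark GADD45G and MAP2K6, which were below background in both groups. Intervals are not adjusted for the number of probe sets, and only GADD45A after GA was called.

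The effects of GA and of 5azaC were set against each other within the same fit, where they share no control array. For GADD45A the difference in log2 fold change, GA minus 5azaC, was -0.53 (95% interval -1.25 to 0.19, limma adjusted p = 0.786). For GADD45B it was 0.10 (95% interval -0.57 to 0.78, adjusted p = 0.962). For MAPK8 it was -0.85 (95% interval -1.62 to -0.07, unadjusted p = 0.0366 from limma, adjusted p = 0.743), and 6.67% of all probe sets had an unadjusted p under 0.05 in this contrast. No probe set of the 21448 passed the adjusted threshold, with or without the pair block, so none of these genes was shown to respond differently to the compounds, and the intervals leave room for differences of more than 2-fold in GADD45A.

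Untreated arrays of the experiments were also compared with each other, the pair block being left out. GADD45A was 0.24 higher on the log2 scale in the controls for 5azaC than in those for GA (limma adjusted p = 0.491), and GADD45B was 0.43 higher (adjusted p = 0.285). Over all probe sets the median shift was 0.18, and 19.3% passed the threshold, none of them among the 7 measured genes. With all 4 untreated arrays as controls and no block, the log2 fold change of GADD45A was -1.75 for GA and -0.99 for 5azaC (adjusted p = 0.0451), in a fit that called 1.51% of all probe sets lower after 5azaC.

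Likeness to GADD45A and GADD45B was described by Pearson's r over the 8 arrays, after the mean of each experiment was subtracted, among 8149 named probe sets above background on at least 4 arrays. The arrays share the split into treated and untreated, so a high r mostly repeats that split. Most like GADD45A were MIA2 (r = 0.995), COQ9 (0.993), TBC1D3L (0.992), PPP2R2A (0.990) and MXD1 (0.990), of which TBC1D3L belongs to a family of near-identical copies and is uncertain. MIA2, an organizer of endoplasmic reticulum exit sites, was itself lower after GA (log2 fold change -1.83, limma adjusted p = 0.0294). Most like GADD45B were ASXL1 (0.987), G6PC3 (0.986), RIOX2 (0.985), MRPL37 (0.975) and ECE1 (0.969), none of which was called in either treatment. Between GADD45A and GADD45B themselves r was 0.73.

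Around these genes, 104 further genes of the pathway were grouped in 9 lists by role, of which 96 were measured. Of the 96, 3 were called after GA, all lower, where 0.322% of all probe sets were called, and 8 after 5azaC, 1 higher and 7 lower, where 1.51% were. The median log2 fold change over all probe sets was 0.02 for GA and 0.05 for 5azaC. The binding partners were the only list of the 9 with a median beyond 0.5 in either direction, and the transcription factors the only one with more than 1 called gene.

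Proteins that GADD45 binds or that share its cell-cycle checkpoints were listed as 10 genes, with a median log2 fold change of 1.12 for GA and 1.02 for 5azaC, opposite in sign to that of GADD45A. Of the 10, CCNE2, CCND3, CDKN1A, CCNB1, CCNB2 and PCNA are among the genes that the study selected as higher on these same arrays, so neither the median nor any count over the list is independent evidence of its direction. CCNE2, the cyclin of the G1 to S transition, rose after 5azaC, from log2 signals of 8.81 and 8.91 to 10.30 and 10.50 (log2 fold change 1.54, SE 0.21, limma adjusted p = 0.0286). After GA its log2 signals were 10.23 and 9.76 against 8.68 and 8.61 (log2 fold change 1.35, adjusted p = 0.0643). The log2 fold change of PCNA, the sliding clamp that GADD45 proteins bind, was 1.33 for GA (adjusted p = 0.0699) and 1.06 for 5azaC (adjusted p = 0.0629). CDKN1A, the inhibitor of cyclin-dependent kinases, was below background in the controls for GA. The group means give a bound of 2.82-fold for it (adjusted p = 0.0538), and the interval of the fit reaches down to 2.28-fold. For 5azaC the log2 fold change of CDKN1A was 1.26 (adjusted p = 0.0672). The log2 fold change was 1.23 and 1.01 for CCND3, a G1 cyclin, and 1.18 and 1.19 for CCNB2, a mitotic cyclin, none of them called. In each treatment 8 of the 10 log2 fold changes were positive and 2 were negative. Those 2 were GADD45GIP1 (-0.32 for GA and -0.97 for 5azaC) and CDK4 (-0.57 and -0.80), neither of them called. Of the 10 genes, 0 were called after GA and 1 after 5azaC, where 0.322% and 1.51% of all probe sets were called. Without the pair block 6 were called after GA, all higher, and 7 after 5azaC, 6 higher and 1 lower. That fit called 1.98% and 4.14% of all probe sets.

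Transcription factors known to bind or control GADD45 genes were listed as 21, of which 19 were measured and 16 were above background in at least one of the groups compared. Of the 19, 3 fell after GA and 5 after 5azaC and none rose, where 0.242% and 0.988% of all probe sets were called lower. The list was chosen with earlier results of these data known, so these counts are not independent evidence of its direction. The median log2 fold change was -0.27 for GA and -0.07 for 5azaC over the 19, and -0.37 and -0.38 over the 16. ATF4, the activator of the amino acid and unfolded protein responses, had log2 signals of 12.23 and 12.14 after GA against 13.82 and 13.95, and of 13.13 and 13.00 after 5azaC against 14.85 and 14.70. Its log2 fold change was -1.70 for GA (SE 0.21, limma adjusted p = 0.0278) and -1.71 for 5azaC (SE 0.21, adjusted p = 0.0203). That of GADD45A was -1.63 for GA and -1.10 for 5azaC, and a link between ATF4 and GADD45A was not tested.

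DDIT3, its partner in the same stress response, was at 6.03 and 6.10 in log2 signal after GA, below background, against 8.84 and 9.37, which gives a signal at least 4.81-fold lower (adjusted p = 0.0037). After 5azaC the log2 signals of DDIT3 were 7.03 and 7.02 against 10.68 and 10.55 (log2 fold change -3.60, adjusted p = 0.0015), 1 of the 2 treated arrays being above background. Such a bound sets the mean of the brighter group against the background percentile, or the dim signal itself where higher. It makes no allowance for the spread of replicates. The adjusted p was fitted on the signals as measured. The signal of ATF3 after GA was lower by at least 1.62-fold (adjusted p = 0.0294), and it had a log2 fold change of -1.42 after 5azaC (adjusted p = 0.0332), again with 1 of 2 treated arrays above background. After 5azaC the signal of CEBPB was lower by at least 3.25-fold (adjusted p = 0.0134), and EGR1, an immediate early factor, fell by 1.61 on the log2 scale (adjusted p = 0.0312). These same factors were not called after GA, where CEBPB lay below background (at least 1.46-fold lower, adjusted p = 0.0959) and EGR1 had a log2 fold change of -1.30 (adjusted p = 0.0736).

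The untreated arrays of the experiments differed in some of these factors. ATF4 was 0.89 higher on the log2 scale in the controls for 5azaC than in those for GA (limma adjusted p = 0.014), DDIT3 was 1.51 higher (adjusted p = 0.0037) and CEBPB was 1.43 higher. The part of these differences in the effects of 5azaC was not tested.

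**Figure D3:**
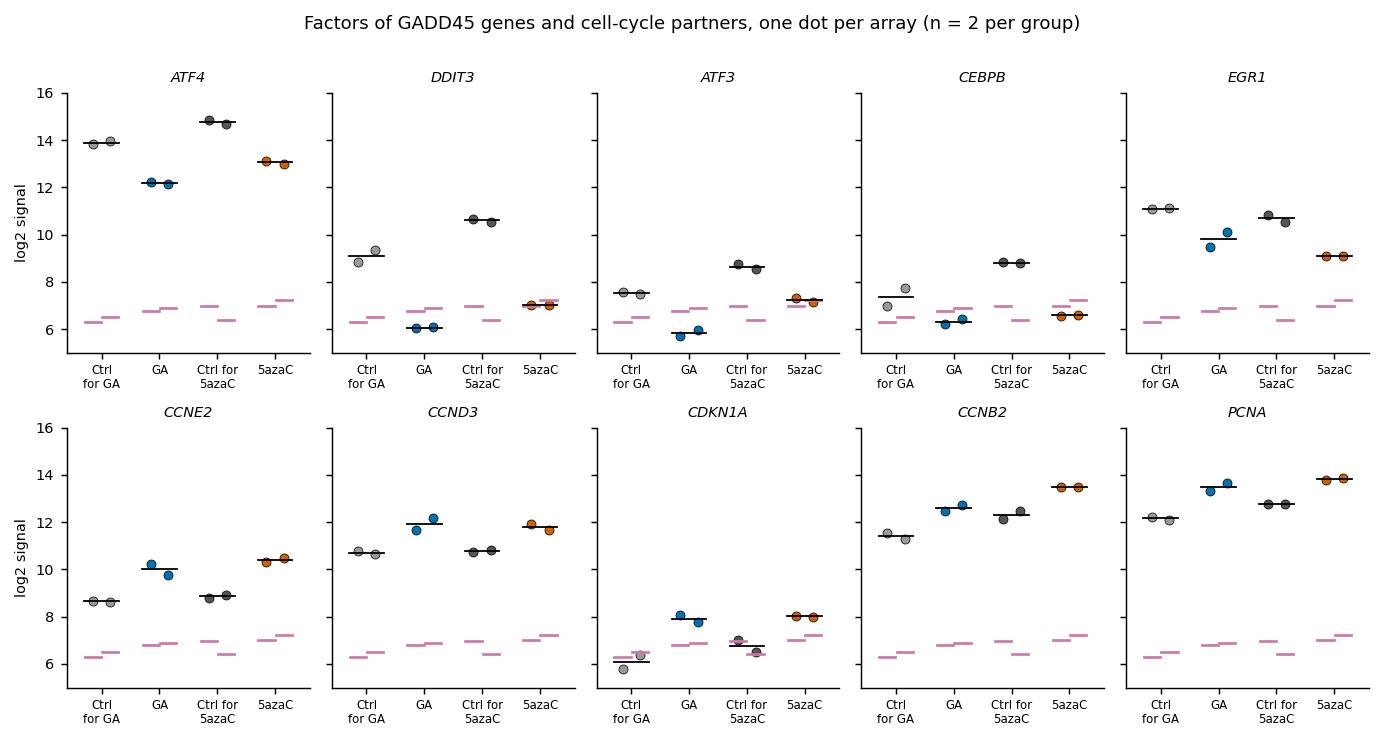
Log2 signal (vertical axis) of 5 transcription factors of GADD45 genes (upper row) and 5 cell-cycle partners (lower row) on each array, by group (horizontal axis), with 1 dot per array, a black line at the mean of the 2 replicates and a pink line at the background percentile of each array. The factors lie lower and the partners higher on the treated arrays of both experiments, and DDIT3, ATF3 and CEBPB lie below the pink lines after GA.

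Other kinases of the p38 and JNK cascades were not called in either treatment. Of 14 other MAP3Ks, 13 were measured and 9 were above background in at least one group, with a median log2 fold change of 0.12 for GA and 0.22 for 5azaC over the 9, and of 0.20 and 0.09 over the 13. MAP3K1, an upstream kinase of JNK, was below background in both control groups. By the group means it was at least 1.96-fold higher after GA (limma adjusted p = 0.0865). After 5azaC, where 1 of 2 arrays was above background, it was at least 1.39-fold higher by the means (adjusted p = 0.0895). Replicate spread is not in these bounds, and the intervals of the fit reach down to 1.49-fold for GA and 1.27-fold for 5azaC. MAP3K12 had log2 fold changes of 0.01 and -0.80, and TAOK2 of 0.67 and 0.22. Of the other MAP2Ks and MAPKs of these cascades, 5 were measured and only MAPK9, which encodes JNK2, and MAPK12, which encodes p38 gamma, were above background in any group, with log2 fold changes of 0.29 and 0.20, and of -0.33 and -0.25. In the ERK branch, listed for comparison, 5 of 6 genes were measured and none was called, MAP2K1 having log2 fold changes of 0.72 and 0.35.

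Among the scaffolds and the phosphatases no gene was called in either treatment. SPAG9, a JNK scaffold, had log2 fold changes of 0.42 for GA and 0.74 for 5azaC, and PPM1B, a phosphatase of the stress kinases, had -0.92 and -0.26. Of 14 substrates of p38 and JNK, MEF2D, a factor that p38 phosphorylates, fell after 5azaC from log2 signals of 10.11 and 10.13 to 8.64 and 9.04 (log2 fold change -1.28, limma adjusted p = 0.0415), with -0.57 after GA (adjusted p = 0.257). JUN, the JNK substrate, had -0.77 and -0.93 (adjusted p = 0.214 and 0.111). Among the genes of DNA demethylation and repair that are tied to GADD45 proteins, APEX1, the endonuclease of base excision repair, fell after 5azaC from 12.86 and 12.63 to 11.25 and 11.41 in log2 signal (log2 fold change -1.41, adjusted p = 0.0414), with -0.60 after GA. Neither MEF2D nor APEX1 differed in its effect between the compounds at the adjusted threshold (adjusted p = 0.746 and 0.743).

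**Figure D4:**
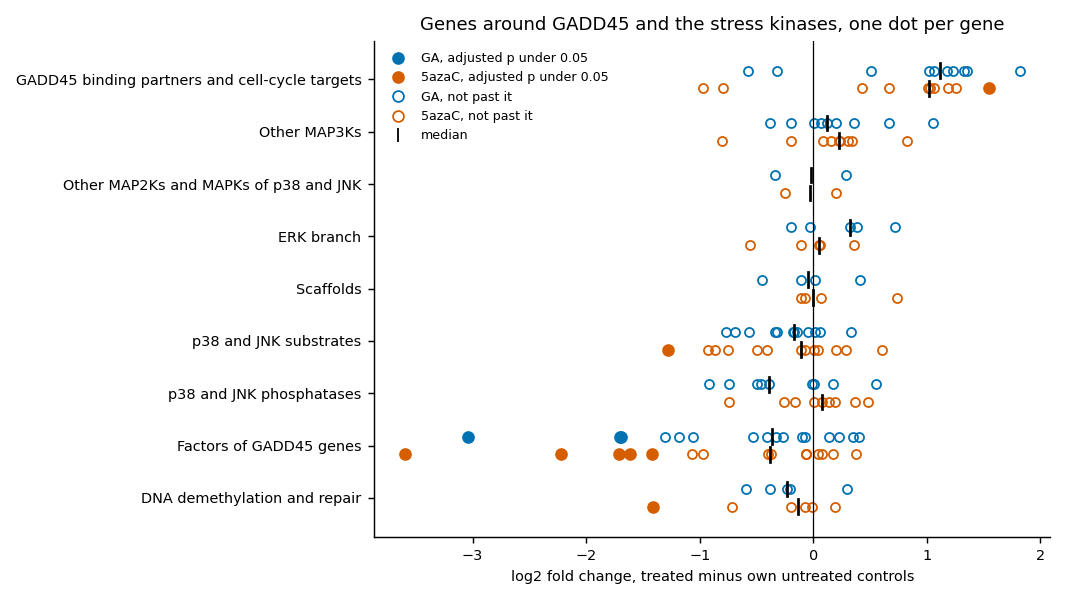
Log2 fold change (horizontal axis, treated minus own untreated controls) of each measured gene above background in at least one group, by list (vertical axis), with filled dots at an adjusted p under 0.05 and a black tick at the list's median. Fitted values are drawn also for genes below background in one group, the binding partners lie mostly to the right of 0, and the filled dots of the factors lie to the left.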

How the data were processed

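Scans of 8 Clariom S arrays were processed by the authors in Affymetrix Expression Console 1.4, by Signal Space Transformation followed by RMA. The deposited values are log2 signals of each probe set on each array. RMA pulls dim signals together, so folds of dim genes can be understated. Of 24351 entries, 2903 were control probe sets and were not tested, and the other 21448 entered without a filter or further normalization. A probe table of the platform named 17709 probe sets by 1 gene symbol, and 3739 are unnamed here.

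Groups came from the sample labels. Effects were fitted with limma 3.58.1 (lmFit and eBayes) in R 4.3.3 over all 8 arrays, with a term for each of the 4 same-numbered pairs, since the methods name a paired test. The fit leaves 2 residual degrees of freedom (prior 5.56), and p-values were adjusted by Benjamini-Hochberg over all probe sets. The fit was also run on simulated data, and the outcome is not given here. A gene under the background percentile on both arrays of a group was given a bound from group means, without allowance for replicate spread. No change was read where both groups were under the percentile. Array number limits the precision.

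The 8 genes and the lists were chosen with earlier results of these data known. Of each list, called genes were named, and otherwise up to 4 with the largest change. JUN, GADD45GIP1, CDK4 and the 4 binding partners other than CCNE2 with the largest changes were added after their values were seen. Lists were described by counts and medians, without a test. The fit was repeated with no pair block or with a block by replicate number, for each comparison alone, with quantile normalization, median centring, the methods' t-test, an unpaired test, filters on dim probe sets, trend and robust options of eBayes, all untreated arrays as one control group, other background percentiles, and leaving out each array.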

Additional observations from a re-analysis of the deposited data

How the results depend on the processing

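GADD45A kept its direction under every alternative run, and its call did not hold under all. After GA it no longer passed under the methods' t-test after Benjamini-Hochberg adjustment (0.042% of all probe sets called) or under an unpaired test (0%). It also did not pass under the methods' test at an unadjusted p with 2-fold (0.746%). The log2 fold change was -1.63 in each, and the number of called genes among the 7 was 0. That number was 2 with probe sets limited to those above background on at least 2 arrays, where 12.7% were called. After 5azaC GADD45A was called, at a log2 fold change of -1.10, without the pair block (replicate block left out), with a block by replicate number, with either filter on dim probe sets and with eBayes trend and robust settings, and at -0.99 with all untreated arrays as controls. The called genes then numbered 1, where 2.97% to 6.55% of the probe sets tested were called. They numbered 2 under the stricter filter (18.1%) and under the trend setting (8.57%). The pairing was checked by the deviations of same-numbered arrays from their group means, whose correlation across probe sets was -0.023 for GA and 0.029 for 5azaC, so the numbers may not pair the cultures.

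Leaving out each array in turn, with or without the pair block, gave log2 fold changes of GADD45A from -1.89 to -1.37 for GA and from -1.25 to -0.96 for 5azaC. Calls of GADD45A are not given for these fits, since leaving out an array leaves 1 array in a group. Of the 96 genes in the wider lists, 3 were called after GA and 8 after 5azaC, while 0.322% and 1.51% of all probe sets were. The share of all probe sets called under the same setting is given in parentheses for GA and 5azaC. They were 11 and 15 without the pair block (1.98% and 4.14%), 15 and 2 with each comparison alone (2.89% and 0.103%), 8 and 13 with a block by replicate number (0.928% and 2.97%), and 0 and 0 under the methods' t-test after adjustment (0.042% and 0.014%) and the unpaired test (0% and 0%). They were 17 and 24 among probe sets above background on at least 2 arrays (12.7% and 18.1%), 12 and 18 without the dimmest 33% (2.85% and 6.55%), 17 and 23 with the trend setting (5.64% and 8.57%), and 5 after GA with all untreated arrays as controls (0.704%). With an array of the 5azaC experiment left out, they numbered up to 15 for GA (0.932% to 2.89%). With an array of the GA experiment left out, they ranged from 2 to 14 for 5azaC (0.103% to 3.04%). Both arrays of each compared group remain in such fits. Counts are not given for the experiment that lost an array, since 1 of its groups then has 1 array.

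Signs turned for values near 0, namely MAP2K3 after 5azaC (0.0019 under quantile normalization) and MAP3K4 after GA (0.0037 with all untreated arrays). With an array left out, the log2 fold change also turned sign for MAP3K4 after GA (-0.36 to 0.24), and after 5azaC for MAP3K4 (-0.033 to 0.54), MAP2K3 (-0.28 to 0.17) and GADD45G (-0.44 to 0.96). The difference of GA minus 5azaC did so for GADD45B (-0.21 to 0.41), GADD45G (-1.16 to 0.24) and MAP2K6 (-0.69 to 0.11). The causes were not tested. No named gene had more than 1 probe set, so averaging over probe sets was not run. With 2 arrays per group, GADD45G and MAP2K6 below background and phosphorylation unmeasured, these values are limited to RNA of 5 of the 8 genes.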
